A study of Mus musculus with 16 samples.

Results

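The unfolded protein response and the integrated stress response were followed through 33 genes that carry known parts of both pathways, in cultured mouse hippocampal neurons at rest or stimulated, with or without knockdown of Dnmt3a1. The genes were taken by name, with earlier results of these data known when they were chosen, and they stand among 55385 genes in each deposited table. All 33 had enough reads to be tested, among 17222 tested genes in all. *Ddit3* was listed under 2 identifiers, of which one held no count in any of the 16 libraries, and its values come from the other.

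The cultures were dissociated hippocampal neurons of newborn C57BL/6N mice infected with recombinant adeno-associated virus. In every culture the virus carried a short hairpin RNA (shRNA) driven by the U6 promoter and GFP driven by the chicken β-actin promoter, and no uninfected group was among the libraries. One hairpin, Control-shRNA, was the control, and the other, Dnmt3a1-shRNA, was directed at the long isoform of the DNA methyltransferase gene *Dnmt3a*. Each was sequenced at baseline and after 4 h of bicuculline, a blocker of inhibitory GABA-A receptors that makes the network fire in bursts, with 4 libraries in each of the 4 groups. The study describes the 4 libraries as independent neuronal preparations. A single hairpin against Dnmt3a1 was sequenced, so effects of its sequence and of the loss of Dnmt3a1 cannot be told apart here. Values are sums over the transcripts of a gene, so neither the isoforms of *Dnmt3a* nor the spliced and unspliced forms of *Xbp1* are separated.

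Secreted and membrane proteins fold in the endoplasmic reticulum (ER), and the unfolded protein response is the set of signals that leaves this compartment when folding falls behind. The sensors IRE1 (*Ern1*), PERK (*Eif2ak3*) and ATF6 act through the transcription factors XBP1, ATF4 and a cleaved form of ATF6 itself, and they raise chaperones, folding enzymes and the ER-associated degradation (ERAD) machinery. PERK is also one of the kinases that phosphorylate the translation factor eIF2α, which slows protein synthesis and favours translation of ATF4, the branch known as the integrated stress response. In hippocampal neurons this branch is known as a regulator of the protein synthesis that lasting synaptic change and memory require.

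The libraries held from 28912697 to 29586355 estimated counts, and 2.729% to 6.596% of them came from mitochondrial genes. Levels below are in CPM, estimated counts scaled to library size with TMM factors, replicates are given in the order 1 to 4, and SE is the standard error of a log2 fold change. *Dnmt3a* lay between 293.4 and 338.3 CPM in the 8 Control-shRNA libraries and between 39.37 and 48.05 CPM in the 8 Dnmt3a1-shRNA libraries, and the activity-regulated genes *Arc*, *Fos* and *Npas4* were higher in each bicuculline library than in each baseline library. Between the shRNAs at baseline their log2 fold changes ran from −0.39 to 0.61. By the calling rule given below, 1 of these 3 genes was higher in Dnmt3a1-shRNA baseline, and none differed between the shRNAs with bicuculline. All 6 neuronal markers were detected, with a summed level of 5499 to 7314 CPM. The 6 astrocyte markers summed to 227.2 to 406.7 CPM in Control-shRNA baseline, 249.0 to 507.9 CPM in Control-shRNA bicuculline, 304.9 to 549.7 CPM in Dnmt3a1-shRNA baseline and 422.1 to 625.9 CPM in Dnmt3a1-shRNA bicuculline. The sums for oligodendrocyte-lineage markers ran from 97.22 to 224.2 CPM over all libraries, those for fibroblasts and vessels from 35.02 to 86.29 CPM with *Cldn5* under 3 counts in every library, and those for microglia from 1.886 to 4.911 CPM with 2 of 6 markers passing the count filter. In such mixed cultures fewer cells of a type and less RNA per cell cannot be told apart.

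The members differed widely in abundance. On the TPM scale, which corrects for transcript length, the Control-shRNA baseline libraries placed *Atf4* first at 418 ± 13.5 TPM (SD, n = 4), followed by the chaperone *Calr* at 306 ± 35.9 TPM, *Canx* at 256 ± 17.7 TPM and the asparagine synthetase gene *Asns* at 245 ± 26.7 TPM. The levels of *Canx* and *Asns* did not differ beyond their SDs, whereas *Atf4* lay above *Calr* by more than both SDs together. *Hspa5*, which codes for the main ER chaperone BiP, followed at 196 ± 19.2 TPM, *Hsp90b1* at 184 ± 18.96 TPM and *Pdia3* at 155 ± 12.98 TPM. The order of *Hspa5* and *Hsp90b1* is within their SDs. At the bottom stood *Trib3* at 3.85 ± 0.429 TPM, *Derl3* at 2.30 ± 0.440 TPM and the sensor *Ern1* at 1.82 ± 0.0721 TPM, while the sensors *Eif2ak3* and *Atf6* were at 13.98 ± 1.16 and 13.2 ± 1.06 TPM. With bicuculline *Hspa5* stood at 389 ± 23.9 TPM in Control-shRNA cultures and *Calr* at 316 ± 21.3 TPM, so that the TPM order of these chaperones turned.

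Bicuculline raised 15 of the 33 members and lowered 2 in Control-shRNA cultures (edgeR quasi-likelihood test, Benjamini-Hochberg adjusted p under 0.05 and a log2 fold change over 0.5 in size). Of all tested genes, 10.8% were called higher and 11.1% lower by the same rule. The genes that rose were all 3 sensors, all 3 transcription factors, both eIF2α phosphatase subunits, 3 of the 4 stress-response targets, 1 of the 5 chaperones, 2 of the 4 J-domain co-chaperones and partners and 1 of the 7 ERAD genes. None of the 3 disulfide isomerases and neither secreted stress protein rose. By the adjusted p alone 19 members were higher and 7 lower, against 19.5% and 21.9% of all tested genes. The 2 groups of libraries did not overlap for 26 members, 18 of them higher and 8 lower with bicuculline, against 39.7% of all tested genes. The median log2 fold change was 0.29 over the members and 0.01 over all tested genes. With library sizes alone as the scaling, the median of all genes moved to −0.15, their split of higher and lower calls went from 1854 and 1911 to 1365 and 3032, and the members stood at 13 higher and 4 lower with a median of 0.13. On log2(TPM + 1), where the median of all genes was −0.14, limma called 9 members higher and 4 lower, and *Ern1*, *Atf6*, *Xbp1*, *Ddit3*, *Trib3* and *Herpud1* were no longer called.

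In Dnmt3a1-shRNA cultures bicuculline raised 14 members and lowered 1, where 12.6% and 13.2% of all tested genes were called. With the adjusted p alone the counts were 17 and 6, beside 20.8% and 25.2% of all tested genes, and the libraries of 22 members did not overlap, beside 40.4%. The median log2 fold change was 0.40 over the members and −0.01 over all tested genes. With library sizes alone the split of all genes went from 2167 higher and 2269 lower to 1674 and 3433, and that of the members to 14 and 4. The pair of bicuculline comparisons uses different libraries, and the member that was called higher in Control-shRNA cultures and not in Dnmt3a1-shRNA cultures was *Trib3*, which the fit with a replicate block called in both. Of the cell-type markers the fibroblast gene *Col1a2* was called higher with bicuculline under Control-shRNA and Dnmt3a1-shRNA (log2 fold change 0.55 and 0.56, edgeR adjusted p = 0.045 and 0.0364) and the neuronal gene *Tubb3* lower (−0.77 and −1.12, edgeR adjusted p = 2.9e-06 and 2.74e-08). *Tubb3* stood apart from the other 5 of the 6 neuronal markers, which had a positive log2 fold change under each shRNA. Of these, 3 passed the adjusted p under each shRNA without being called, and the median of the 6 was 0.21 in both. The part of these markers in the members' response was not tested.

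**Figure D1:**
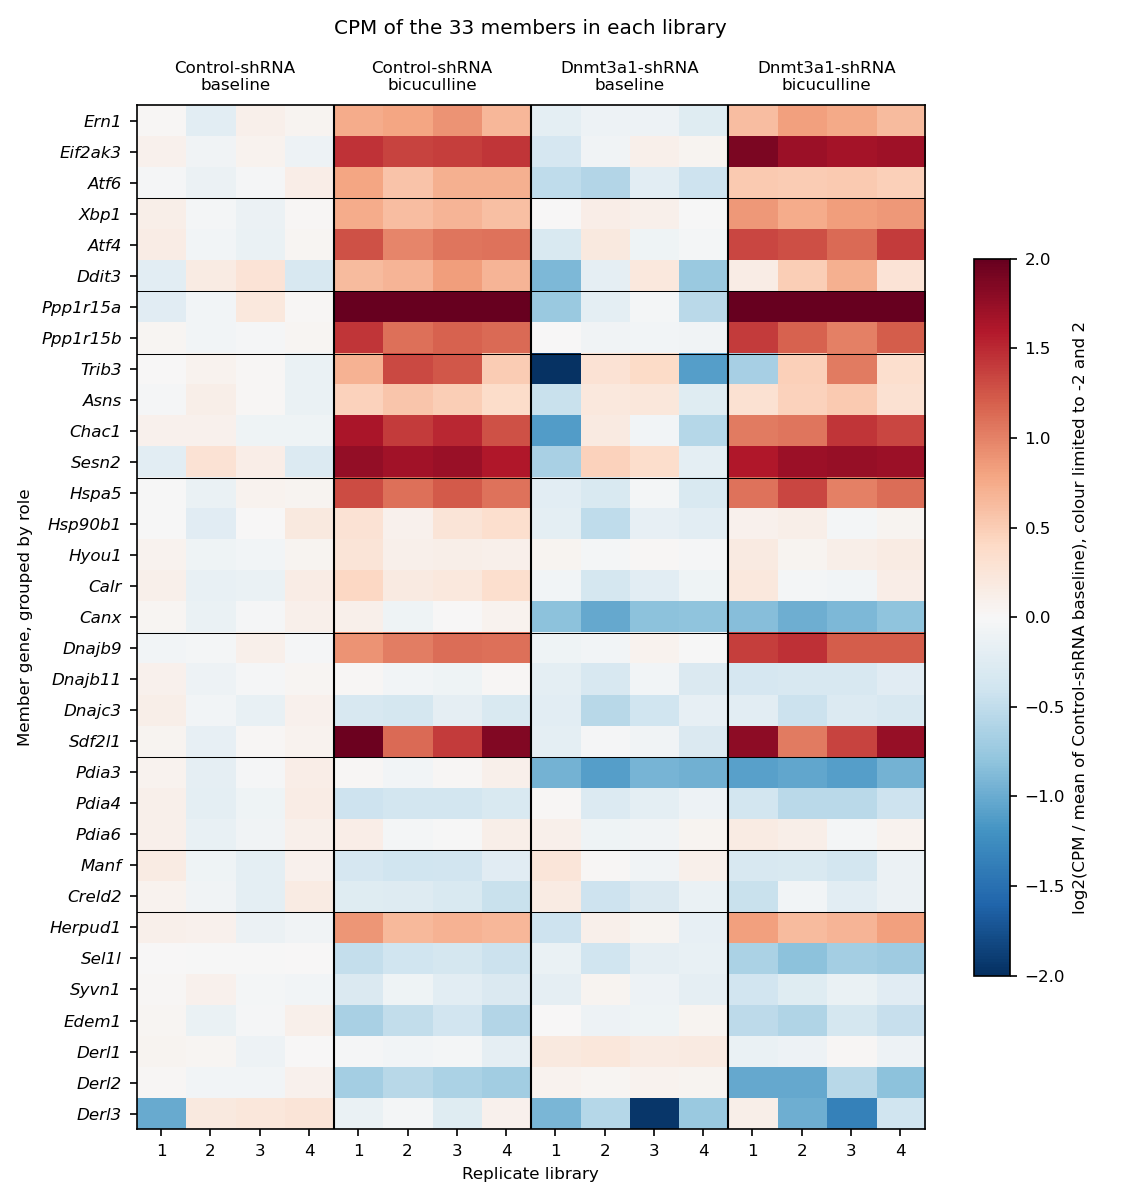
Heat map of the 33 members (rows, grouped by role) in the 16 libraries (columns, 4 replicates in each of 4 groups). Colour gives log2 of the CPM over the mean of the Control-shRNA baseline libraries, limited to −2 and 2. The sensors, transcription factors, phosphatase subunits and most stress-response targets are red in the bicuculline columns of both shRNAs, and *Canx* and *Pdia3* are blue in all 8 Dnmt3a1-shRNA columns.

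Promoter sequence is shown first, since the members include textbook carriers of stress-response elements. RefSeq windows from 250 bases before to 50 bases after the transcription start (GRCm38.p6) were found for 28 of the 33 members, and *Atf6*, *Ppp1r15b*, *Hyou1*, *Manf* and *Derl1* had none. Both strands were searched for the ER stress response element (CCAAT, 9 bases of any kind, CCACG), which ATF6 binds together with NF-Y, for its variant form (ATTGG, 1 base of any kind, CCACG), for the unfolded protein response element TGACGTGG and for the C/EBP-ATF element TGATGNAAN, which ATF4 binds with a C/EBP partner. The first was present in 9 of the 28 member genes, or 32.1%, and in 0.119% of 32851 windows in all. The variant was present in 2 member genes, or 7.14%, against 0.0365%, and the C/EBP-ATF element in 4 member genes, or 14.3%, against 3.95%. TGACGTGG was found in none of the 28 and in 0.676% of all windows. These are matches of letters and not measured binding.

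The letters of the first element are set out here in the direction of the element, with its fixed bases in capitals, because they let the 9 genes be compared base by base.
Calr: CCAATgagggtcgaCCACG
Canx: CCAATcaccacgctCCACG
Creld2: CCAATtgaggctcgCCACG
Derl3: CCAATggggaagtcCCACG
Dnajc3: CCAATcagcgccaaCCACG
Hsp90b1, first copy: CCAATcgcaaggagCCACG
Hsp90b1, other copy: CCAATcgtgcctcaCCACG
Hspa5: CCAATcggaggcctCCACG
Pdia6: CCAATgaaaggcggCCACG
Syvn1: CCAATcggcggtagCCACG
*Hsp90b1* held it in 2 places, on opposite strands.

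Whole windows are given for 4 genes that the results turn on, written from 5′ to 3′ along the gene, with the fixed bases of each match in capitals. *Hspa5* is the strongest responder among the chaperones, *Hsp90b1* carries 2 copies and responded little, *Herpud1* carries the variant form together with a C/EBP-ATF element, and *Chac1* carries a C/EBP-ATF element alone. The windows lie at chr2:34771840-34772139 on the plus strand, chr10:86705395-86705694 on the minus strand, chr8:94386179-94386478 on the plus strand and chr2:119350992-119351291 on the plus strand, in the same order.
Hspa5: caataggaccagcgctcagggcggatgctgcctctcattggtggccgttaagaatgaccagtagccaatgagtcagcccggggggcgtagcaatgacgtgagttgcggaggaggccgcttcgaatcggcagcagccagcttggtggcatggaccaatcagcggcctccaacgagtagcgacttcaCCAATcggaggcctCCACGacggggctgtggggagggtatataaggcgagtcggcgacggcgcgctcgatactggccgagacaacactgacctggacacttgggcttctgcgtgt
Hsp90b1: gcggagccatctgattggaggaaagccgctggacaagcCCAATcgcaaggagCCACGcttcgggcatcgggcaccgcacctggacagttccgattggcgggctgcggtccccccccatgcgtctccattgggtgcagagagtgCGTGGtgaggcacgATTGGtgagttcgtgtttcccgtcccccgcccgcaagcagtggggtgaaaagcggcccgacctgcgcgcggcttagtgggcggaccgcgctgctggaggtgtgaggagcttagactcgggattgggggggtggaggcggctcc
Herpud1: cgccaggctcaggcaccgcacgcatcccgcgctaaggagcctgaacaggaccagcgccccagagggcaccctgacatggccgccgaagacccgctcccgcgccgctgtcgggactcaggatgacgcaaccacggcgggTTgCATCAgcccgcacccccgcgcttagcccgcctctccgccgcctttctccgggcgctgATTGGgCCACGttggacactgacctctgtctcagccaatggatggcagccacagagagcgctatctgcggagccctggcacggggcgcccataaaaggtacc
Chac1: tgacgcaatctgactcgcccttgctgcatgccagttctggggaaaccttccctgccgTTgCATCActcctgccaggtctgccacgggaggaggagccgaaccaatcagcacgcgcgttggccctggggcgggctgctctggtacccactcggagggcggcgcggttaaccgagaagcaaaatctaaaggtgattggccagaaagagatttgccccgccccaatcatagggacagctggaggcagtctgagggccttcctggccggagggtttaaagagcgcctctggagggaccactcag

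The sensor genes all rose. *Ern1* (IRE1, the kinase and RNase that splices *Xbp1* mRNA, ENSMUSG00000020715.9, chr11:106394650-106487852, minus strand) was at 5.23, 4.41, 5.51 and 5.35 CPM in the Control-shRNA baseline libraries and at 8.60, 8.84, 9.58 and 8.10 CPM with bicuculline. In Dnmt3a1-shRNA cultures it was at 4.50, 4.77, 4.76 and 4.34 CPM at baseline and at 7.84, 9.03, 8.70 and 7.94 CPM with bicuculline. Every bicuculline library lay above every baseline library, and the log2 fold change was 0.78 (SE 0.09, edgeR adjusted p = 2.75e-06) with Control-shRNA and 0.87 (SE 0.09, edgeR adjusted p = 6.92e-07) with Dnmt3a1-shRNA. *Eif2ak3* (PERK, ENSMUSG00000031668.14, chr6:70844515-70905245, plus strand) was at 30.5, 27.2, 30.1 and 26.7 CPM at baseline and 78.4, 72.96, 74.6 and 77.1 CPM with bicuculline under Control-shRNA. Under Dnmt3a1-shRNA its values were 22.7, 27.2, 30.6 and 29.7 CPM and 105, 94.2, 90.7 and 93.2 CPM. The baseline values of both shRNAs mingled, while the 4 Dnmt3a1-shRNA bicuculline libraries were above the 4 Control-shRNA ones. The log2 fold change was 1.40 (SE 0.08, edgeR adjusted p = 4.69e-10) and 1.80 (SE 0.08, edgeR adjusted p = 1.75e-11).

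*Atf6* codes for the sensor that is cleaved to become a transcription factor (ENSMUSG00000026663.6, chr1:170704674-170867771, minus strand). Its 4 baseline libraries held 44.2, 41.3, 44.2 and 49.2 CPM with Control-shRNA, and its bicuculline libraries 77.3, 66.7, 72.97 and 73.03 CPM. With Dnmt3a1-shRNA the baseline held 31.3, 29.9, 38.5 and 33.5 CPM and bicuculline 64.4, 63.7, 64.6 and 62.4 CPM. The rise was clear of overlap under both shRNAs, with a log2 fold change of 0.70 (SE 0.07, edgeR adjusted p = 8.52e-07) and of 0.94 (SE 0.08, edgeR adjusted p = 1.97e-08), and the Dnmt3a1-shRNA libraries lay lower in each state.

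All 3 transcription factor genes rose as well. *Xbp1*, whose mRNA IRE1 splices (ENSMUSG00000020484.19, chr11:5520659-5525893, plus strand), went from 71.7, 64.05, 60.9 and 66.9 CPM to 109.6, 102, 106 and 99.9 CPM in Control-shRNA cultures. In Dnmt3a1-shRNA cultures the values were 66.6, 72.5, 70.4 and 65.3 CPM at baseline and 121, 109.9, 118 and 119.7 CPM with bicuculline. The baseline and bicuculline libraries did not overlap, with a log2 fold change of 0.66 (SE 0.06, edgeR adjusted p = 1.01e-07) and 0.77 (SE 0.06, edgeR adjusted p = 1.14e-08). *Atf4*, the effector of the integrated stress response (ENSMUSG00000042406.8, chr15:80255184-80257541, plus strand), was at 342, 297, 281 and 316 CPM and then 746, 605, 646 and 656 CPM with Control-shRNA. It was at 251.3, 352, 292 and 299.8 CPM and then 783, 754, 678 and 809.8 CPM with Dnmt3a1-shRNA. Each bicuculline library of *Atf4* was above each baseline library. The log2 fold change was 1.10 (SE 0.09, edgeR adjusted p = 6e-08) and 1.34 (SE 0.10, edgeR adjusted p = 4.27e-09).

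*Ddit3* codes for CHOP, a C/EBP-family factor linked to death of stressed cells (ENSMUSG00000025408.15, chr10:127290774-127296288, plus strand). Control-shRNA libraries held 22.4, 29.2, 31.6 and 20.9 CPM at baseline and 40.2, 41.6, 46.6 and 41.5 CPM with bicuculline. Dnmt3a1-shRNA libraries held 13.9, 22.99, 30.1 and 15.5 CPM at baseline and 28.7, 36.7, 42.5 and 31.3 CPM with bicuculline. Within both baselines replicates 2 and 3 stood above replicates 1 and 4, and in Dnmt3a1-shRNA the highest baseline library reached past the lowest bicuculline library. *Ddit3* rose by a log2 fold change of 0.71 (SE 0.19, edgeR adjusted p = 0.00708) and of 0.75 (SE 0.20, edgeR adjusted p = 0.00439). With library sizes alone as the scaling, the call in Control-shRNA was lost (log2 fold change 0.55, edgeR adjusted p = 0.0564).

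The largest change of any member was in *Ppp1r15a* (GADD34, the inducible subunit that brings protein phosphatase 1 to eIF2α, ENSMUSG00000040435.12, chr7:45522916-45526268, minus strand). It was at 22.8, 25.7, 30.9 and 26.9 CPM in Control-shRNA baseline and at 149.5, 151, 144 and 145 CPM in Control-shRNA bicuculline. Dnmt3a1-shRNA libraries held 15.8, 23.2, 25.9 and 18.2 CPM at baseline and 147, 203, 148 and 156 CPM with bicuculline. No library of one state came near the other, and replicate 2 of Dnmt3a1-shRNA bicuculline was the highest of all. The log2 fold change was 2.47 (SE 0.14, edgeR adjusted p = 2.3e-10) and 2.98 (SE 0.14, edgeR adjusted p = 2.27e-11), or 5.56-fold and 7.88-fold. Its constitutive relative *Ppp1r15b* (CReP, ENSMUSG00000046062.5, chr1:133131143-133139783, plus strand) was at 72.9, 68.2, 69.7 and 72.6 CPM and 191, 152, 161 and 156 CPM with Control-shRNA. It was at 71.1, 67.8, 67.9 and 67.6 CPM and 186, 161, 143 and 163 CPM with Dnmt3a1-shRNA. Baseline values of this gene were tight and the bicuculline values all above them, with a log2 fold change of 1.22 (SE 0.08, edgeR adjusted p = 1.51e-09) and 1.25 (SE 0.08, edgeR adjusted p = 8.07e-10).

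Of the 4 stress-response targets of ATF4 and CHOP, 3 rose in Control-shRNA, and the log2 fold changes of the 4 ran from 0.47 to 1.70. *Sesn2*, a sestrin that restrains the growth kinase mTORC1 (ENSMUSG00000028893.8, chr4:132492032-132510501, minus strand), was at 80.5, 114, 102 and 77.6 CPM in Control-shRNA baseline and 317, 300.4, 311 and 285 CPM with bicuculline. In Dnmt3a1-shRNA it was at 59.4, 129, 119.8 and 81.2 CPM and 285, 307, 312 and 305 CPM. The 8 bicuculline libraries lay within a narrow band, while at baseline replicates 2 and 3 were above replicates 1 and 4 under both shRNAs. Its log2 fold change was 1.70 (SE 0.18, edgeR adjusted p = 6.98e-07) and 1.63 (SE 0.18, edgeR adjusted p = 8.03e-07). *Chac1*, which degrades glutathione (ENSMUSG00000027313.3, chr2:119351229-119354381, plus strand), was at 46.2, 46.2, 41.01 and 40.99 CPM and 135, 115.3, 124 and 106 CPM with Control-shRNA. It was at 20.1, 49.5, 41.8 and 29.5 CPM and 89.7, 91.8, 117 and 110.2 CPM with Dnmt3a1-shRNA. Its baseline was even under Control-shRNA and uneven under Dnmt3a1-shRNA, where replicate 1 was lowest, and no baseline library reached a bicuculline library. The log2 fold change was 1.46 (SE 0.19, edgeR adjusted p = 6.36e-06) and 1.54 (SE 0.19, edgeR adjusted p = 2.95e-06).

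*Trib3*, a pseudokinase that inhibits the kinase AKT (ENSMUSG00000032715.9, chr2:152337422-152344032, minus strand), was the least abundant target. Control-shRNA libraries held 3.23, 3.37, 3.25 and 2.92 CPM at baseline and 5.17, 7.99, 7.55 and 4.56 CPM with bicuculline, without overlap. Dnmt3a1-shRNA libraries held 0.808, 3.89, 4.16 and 1.48 CPM and 2.02, 4.44, 6.52 and 4.03 CPM, with replicates 2 and 3 high in both states and the groups overlapping. The log2 fold change was 0.98 (SE 0.37, edgeR adjusted p = 0.0426) in Control-shRNA, where the gene was called, and 0.71 (SE 0.39, edgeR adjusted p = 0.148) in Dnmt3a1-shRNA, where it was not. Each bicuculline library of Dnmt3a1-shRNA was above the baseline library of the same number, and a fit with replicate number as a blocking term called the gene there too (0.75, edgeR adjusted p = 0.0218). The Control-shRNA call was lost in DESeq2 (adjusted p = 0.0594) and in 8 of the 16 fits that left out 1 library. These were the fits without any 1 of the 4 Control-shRNA baseline libraries, without Control-shRNA bicuculline replicate 2 or 3, and without Dnmt3a1-shRNA bicuculline replicate 2 or 4, with an edgeR adjusted p from 0.0542 to 0.109. *Asns*, which makes asparagine, had means of 209 ± 14.6 CPM and 289.9 ± 16.03 CPM (SD, n = 4) in Control-shRNA and 204 ± 45.7 CPM and 275 ± 21.9 CPM in Dnmt3a1-shRNA. The bicuculline libraries were all above the baseline libraries of the same shRNA, and its log2 fold change of 0.47 (SE 0.12, edgeR adjusted p = 0.00319) and 0.44 (SE 0.12, edgeR adjusted p = 0.00521) stayed under the fold threshold. It passed that threshold without Control-shRNA baseline replicate 2 (0.51, edgeR adjusted p = 0.00444) and without Dnmt3a1-shRNA baseline replicate 2 or 3 (0.53 in each, edgeR adjusted p = 0.00153 and 0.00134).

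**Figure D2:**
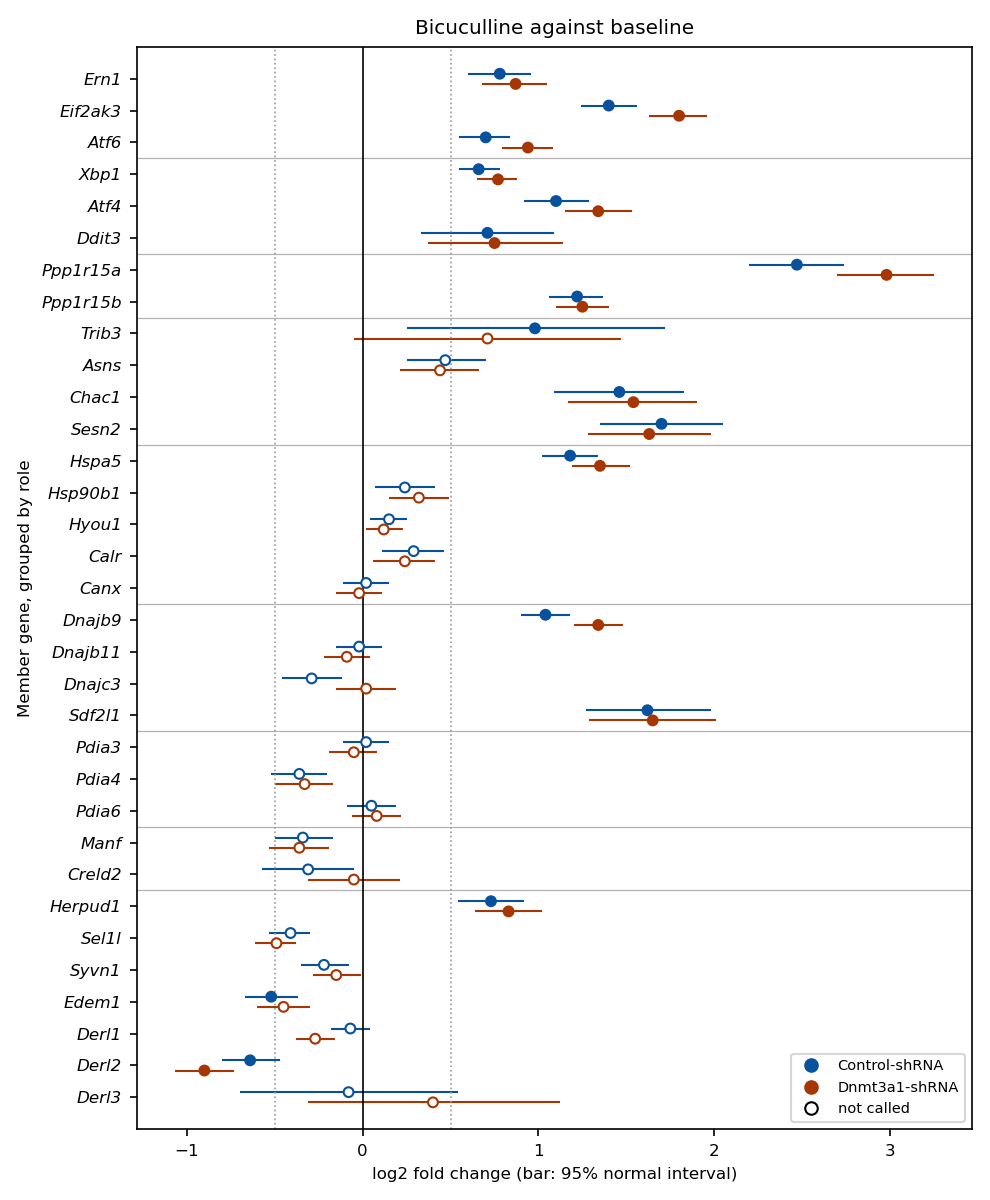
Log2 fold change of bicuculline against baseline for the 33 members (rows, grouped by role), in Control-shRNA (blue) and Dnmt3a1-shRNA (brown) cultures. Points are edgeR estimates from 4 against 4 libraries, bars are 95% normal intervals, filled points were called, and dotted lines mark −0.5 and 0.5. *Ppp1r15a* stands farthest right at 2.47 and 2.98 and *Derl2* farthest left at −0.64 and −0.90.

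The chaperones split. *Hspa5* (BiP, ENSMUSG00000026864.13, chr2:34771970-34777547, plus strand) was at 207, 191, 220.3 and 218 CPM in Control-shRNA baseline and at 519, 447, 487 and 446 CPM with bicuculline. In Dnmt3a1-shRNA its values were 180.3, 169.5, 203 and 169 CPM and 442, 531, 420.0 and 453 CPM. Every bicuculline library held more than the highest baseline library by a wide gap, and the log2 fold change was 1.18 (SE 0.08, edgeR adjusted p = 3.68e-09) and 1.35 (SE 0.08, edgeR adjusted p = 4.97e-10). The other 4 ER chaperones stayed under the fold threshold. *Hsp90b1* (GRP94) had a log2 fold change of 0.24 (SE 0.09, edgeR adjusted p = 0.0329) in Control-shRNA and 0.32 (SE 0.09, edgeR adjusted p = 0.00542) in Dnmt3a1-shRNA. *Calr* (calreticulin), a calcium-binding chaperone of glycoproteins, had one of 0.29 (SE 0.09, edgeR adjusted p = 0.0144) and 0.24 (SE 0.09, edgeR adjusted p = 0.0353). Both therefore passed the adjusted p without the fold, which of the 16 fits lacking 1 library held in 10 for *Hsp90b1* and 14 for *Calr* in Control-shRNA, and in 16 and 12 in Dnmt3a1-shRNA. With library sizes alone and on both TPM scales neither gene passed under either shRNA. On those scales the log2 fold change went down to 0.05 for each in Control-shRNA (limma adjusted p up to 0.73 and 0.703), and to 0.14 for *Hsp90b1* and −0.01 for *Calr* in Dnmt3a1-shRNA (limma adjusted p up to 0.242 and 0.941). *Hyou1* (GRP170), which exchanges nucleotide on BiP, was at 0.15 (SE 0.05, edgeR adjusted p = 0.0355) and 0.12 (SE 0.05, edgeR adjusted p = 0.0767), and its sign in Control-shRNA turned with library sizes alone and with TPM. For *Canx* (calnexin, the membrane-bound counterpart of calreticulin) the values were 0.02 (SE 0.07, edgeR adjusted p = 0.808) and −0.02 (SE 0.07, edgeR adjusted p = 0.83).

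Of the BiP co-chaperones and partners, *Dnajb9* and *Sdf2l1* rose and the others did not. *Dnajb9* (ERdj4, which also holds IRE1 inactive, ENSMUSG00000014905.4, chr12:44205559-44210326, minus strand) was at 34.8, 35.4, 39.03 and 35.5 CPM and then 67.6, 73.5, 78.8 and 77.6 CPM in Control-shRNA. It was at 34.3, 34.7, 37.8 and 36.1 CPM and then 94.5, 100.1, 83.3 and 83.7 CPM in Dnmt3a1-shRNA. In CPM the 4 groups formed 3 levels, baseline of both shRNAs, Control-shRNA bicuculline and above it Dnmt3a1-shRNA bicuculline. On the TPM scale the bicuculline groups overlapped, at 50.24 to 65.81 TPM in Control-shRNA and 61.98 to 72.85 TPM in Dnmt3a1-shRNA. The log2 fold changes with bicuculline were 1.04 (SE 0.07, edgeR adjusted p = 3.07e-09) and 1.34 (SE 0.07, edgeR adjusted p = 9.82e-11), and their difference did not pass the interaction test. *Sdf2l1*, an ER protein that works with J-domain co-chaperones (ENSMUSG00000022769.9, chr16:17130138-17132383, minus strand), was at 3.88, 3.33, 3.80 and 3.92 CPM and 14.5, 8.17, 9.88 and 13.5 CPM in Control-shRNA. It was at 3.27, 3.66, 3.56 and 3.06 CPM and 12.9, 7.70, 9.52 and 12.6 CPM in Dnmt3a1-shRNA. In both bicuculline groups replicates 1 and 4 were the high libraries and replicate 2 the low one, and all were above baseline. Its log2 fold change was 1.62 (SE 0.18, edgeR adjusted p = 1.4e-06) and 1.65 (SE 0.18, edgeR adjusted p = 9.92e-07). *Dnajb11* (ERdj3) had a log2 fold change of −0.02 (SE 0.07, edgeR adjusted p = 0.84) and −0.09 (SE 0.07, edgeR adjusted p = 0.269), and *Dnajc3* (P58IPK, known as an inhibitor of PERK) one of −0.29 (SE 0.09, edgeR adjusted p = 0.0119) in Control-shRNA and 0.02 (SE 0.09, edgeR adjusted p = 0.9) in Dnmt3a1-shRNA.

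Folding enzymes and secreted stress proteins leaned lower or did not pass the test. *Pdia4* (ERp72) had a log2 fold change of −0.36 (SE 0.08, edgeR adjusted p = 0.00198) and −0.33 (SE 0.08, edgeR adjusted p = 0.00325), with no overlap between states. *Pdia3* (ERp57, the isomerase that works on glycoproteins with calnexin and calreticulin) was at 0.02 (SE 0.07, edgeR adjusted p = 0.815) and −0.05 (SE 0.07, edgeR adjusted p = 0.544), and *Pdia6* (P5) at 0.05 (SE 0.07, edgeR adjusted p = 0.618) and 0.08 (SE 0.07, edgeR adjusted p = 0.385). The neurotrophic factor *Manf*, a protein that stressed cells secrete, was at −0.34 (SE 0.09, edgeR adjusted p = 0.00439) and −0.36 (SE 0.09, edgeR adjusted p = 0.00215), again without overlap. *Creld2* was at −0.31 (SE 0.13, edgeR adjusted p = 0.0686) and −0.05 (SE 0.13, edgeR adjusted p = 0.788). None of these 5 genes reached the fold threshold, although *Pdia4*, *Manf* and *Creld2* did so in Control-shRNA in at least 1 of the limma fits on log2 TPM, on which scale the median of all genes is lower too.

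Among the ERAD genes *Herpud1* rose and *Edem1* and *Derl2* fell. *Herpud1* (HERP, a membrane partner of the ubiquitin ligase HRD1, ENSMUSG00000031770.16, chr8:94386438-94395377, plus strand) was at 68.1, 67.2, 58.7 and 60.4 CPM and 117, 99.9, 103 and 101 CPM in Control-shRNA. In Dnmt3a1-shRNA it was at 47.5, 68.5, 66.3 and 57.00 CPM and 113, 99.1, 102 and 112 CPM. The states did not overlap and the log2 fold change was 0.73 (SE 0.10, edgeR adjusted p = 1.04e-05) and 0.83 (SE 0.10, edgeR adjusted p = 1.67e-06). *Derl2*, a derlin of the retrotranslocation channel (ENSMUSG00000018442.13, chr11:71007164-71019841, minus strand), was at 23.8, 22.6, 22.7 and 25.04 CPM and 14.7, 16.01, 15.2 and 14.6 CPM in Control-shRNA. It was at 24.7, 24.1, 24.6 and 24.4 CPM and 11.6, 11.6, 16.04 and 13.3 CPM in Dnmt3a1-shRNA. All bicuculline libraries were below all baseline libraries, and *Derl2* fell by a log2 fold change of 0.64 (SE 0.09, edgeR adjusted p = 1.16e-05) and 0.90 (SE 0.09, edgeR adjusted p = 1.86e-07).

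*Edem1*, which trims mannose from misfolded glycoproteins (ENSMUSG00000030104.9, chr6:108828641-108859356, plus strand), was at 17.8, 15.99, 17.2 and 18.7 CPM and 11.2, 12.4, 13.3 and 11.7 CPM in Control-shRNA. Its Dnmt3a1-shRNA values were 17.5, 16.3, 16.4 and 18.1 CPM and 12.2, 11.4, 13.6 and 12.7 CPM. Baseline and bicuculline libraries were separate under both shRNAs, with a log2 fold change of −0.52 (SE 0.08, edgeR adjusted p = 3.38e-05) in Control-shRNA, called, and −0.45 (SE 0.08, edgeR adjusted p = 0.000128) in Dnmt3a1-shRNA, under the fold threshold. The call ended without Control-shRNA baseline replicate 4 or without Control-shRNA bicuculline replicate 1 (log2 fold change −0.49 in each, edgeR adjusted p = 0.000213 and 0.000137). On both TPM scales it ended too (−0.36 and −0.41, limma adjusted p = 0.0209 and 0.0223). In Dnmt3a1-shRNA *Edem1* was called with library sizes alone (−0.59, edgeR adjusted p = 2.05e-05) and on both TPM scales (−0.58 and −0.68, limma adjusted p = 0.000639 and 0.000532). The ubiquitin ligase *Syvn1* (HRD1) had −0.22 (SE 0.07, edgeR adjusted p = 0.0179) and −0.15 (SE 0.07, edgeR adjusted p = 0.0993), and its partner *Sel1l* had −0.41 (SE 0.06, edgeR adjusted p = 2.37e-05) and −0.49 (SE 0.06, edgeR adjusted p = 2.66e-06). *Sel1l* was therefore lower under both shRNAs by the adjusted p and short of the fold threshold. It passed that threshold in Dnmt3a1-shRNA without baseline replicate 2 or without bicuculline replicate 1, 3 or 4 (−0.55 to −0.50, edgeR adjusted p from 2.3e-07 to 1.49e-05). There it also passed with only the genes at zero in all libraries removed (−0.50). With library sizes alone it passed under Control-shRNA and Dnmt3a1-shRNA (−0.57 and −0.64). On both TPM scales it did so too (−0.59 and −0.60 in Control-shRNA, −0.64 and −0.66 in Dnmt3a1-shRNA). *Derl1* had −0.07 (SE 0.06, edgeR adjusted p = 0.336) and −0.27 (SE 0.06, edgeR adjusted p = 0.000574), and *Derl3*, at under 1 CPM in every library, had −0.08 (SE 0.32, edgeR adjusted p = 0.865) and 0.40 (SE 0.36, edgeR adjusted p = 0.403).

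Promoter letters and the bicuculline response are set side by side as a description. Of the 11 members with either ER stress response element, *Hspa5* and *Herpud1* were called higher in Control-shRNA and the other 9 were not. Of the 4 members with a C/EBP-ATF element, *Chac1*, *Trib3* and *Herpud1* were called higher, and *Asns* passed the adjusted p without the fold. Of the 5 members with the largest log2 fold change, *Chac1* held such letters in the window searched, and *Ppp1r15a*, *Sesn2*, *Sdf2l1* and *Eif2ak3* did not.

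**Figure D3:**
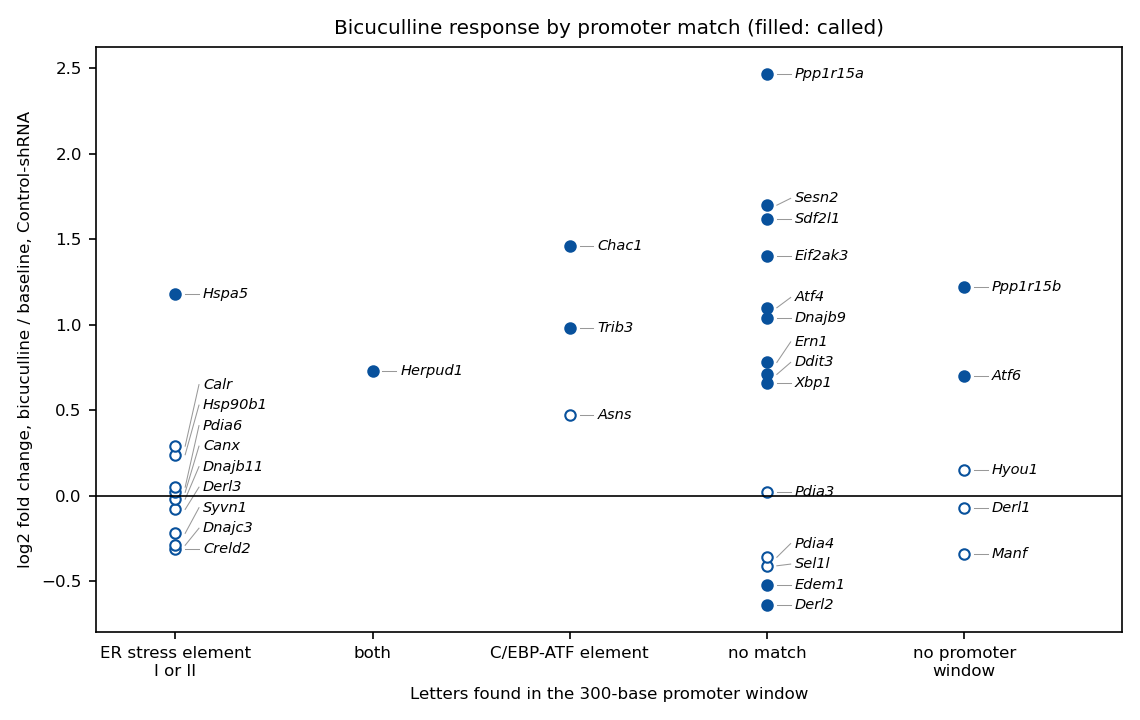
Log2 fold change of bicuculline against baseline in Control-shRNA cultures (vertical axis) for the 33 members, placed by the letters found in their 300-base promoter window (horizontal axis). Each point is 1 gene and filled points were called. In the column of genes with an ER stress response element and no C/EBP-ATF element the single filled point is *Hspa5* at 1.18.

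The response of the members was then compared between the shRNAs. No member passed the test of the interaction, in which the bicuculline effect under Dnmt3a1-shRNA is set against that under Control-shRNA, and neither did any tested gene (0% of 17222 in edgeR, with 852 at an unadjusted p under 0.05, 17 in DESeq2, 3 in edgeR with a replicate block and 0 in limma with voom). Of the members, 7 had an unadjusted p under 0.05. The largest difference was that of *Ppp1r15a*, 0.50 (SE 0.19, edgeR adjusted p = 0.877). *Eif2ak3* differed by 0.39 (SE 0.11, edgeR adjusted p = 0.71), *Dnajb9* by 0.30 (SE 0.10, edgeR adjusted p = 0.838) and *Dnajc3* by 0.31 (SE 0.12, edgeR adjusted p = 0.93). *Atf6* differed by 0.24 (SE 0.11, edgeR adjusted p = 0.982). The remaining 2 of the 7 went the other way, *Derl1* by −0.20 (SE 0.08, edgeR adjusted p = 0.921) and *Derl2* by −0.26 (SE 0.12, edgeR adjusted p = 0.995). The 7 thus held 5 with a higher and 2 with a lower bicuculline effect under Dnmt3a1-shRNA, and none passed after adjustment over all genes.

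Against Control-shRNA, 2 members were called lower and none higher in Dnmt3a1-shRNA, both at baseline and with bicuculline. Of all tested genes 1.76% were called higher and 4.07% lower at baseline, and 2.0% and 3.90% with bicuculline. The 2 of 33 members called lower are near these shares, and their number says nothing particular of the list. With the adjusted p alone 1 member was higher and 7 lower at baseline, beside 8.12% and 8.19% of all genes, and 2 were higher and 4 lower with bicuculline, beside 7.69% and 9.99%. Libraries of the shRNAs did not overlap for 6 members at baseline and 8 with bicuculline, where 19.9% and 20.9% of all tested genes did not. The median log2 fold change over the members was −0.14 at baseline and −0.04 with bicuculline, and over all tested genes 0.01 and −0.01.

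Both members that fell code for parts of the glycoprotein folding cycle, as does *Calr*, which was not called. *Canx* (calnexin, ENSMUSG00000020368.15, chr11:50293961-50325673, minus strand) was at 454, 399.7, 434 and 471 CPM in Control-shRNA baseline and 248, 217, 250.3 and 252 CPM in Dnmt3a1-shRNA baseline. With bicuculline it was at 472, 416, 441 and 459 CPM and 244, 223, 235 and 252 CPM. Each Dnmt3a1-shRNA library was far below each Control-shRNA library, at 54.97% and 53.3% of the control mean in the 2 states. *Canx* fell by a log2 fold change of 0.86 (SE 0.07, edgeR adjusted p = 1.34e-07) at baseline and 0.91 (SE 0.07, edgeR adjusted p = 6.84e-08) with bicuculline.

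*Pdia3* (ENSMUSG00000027248.13, chr2:121413775-121438687, plus strand) was at 201, 169, 188 and 209.5 CPM in Control-shRNA baseline and 99.9, 89.2, 100.5 and 98.2 CPM in Dnmt3a1-shRNA baseline. Its bicuculline libraries held 196, 184, 194 and 206 CPM and 90.5, 93.2, 89.5 and 100.1 CPM. The shRNAs were again wholly separate, with Dnmt3a1-shRNA at 50.5% and 47.9% of the control mean. *Pdia3* fell by a log2 fold change of 0.99 (SE 0.07, edgeR adjusted p = 4.4e-08) and 1.06 (SE 0.07, edgeR adjusted p = 1.19e-08). Calreticulin, the soluble partner of the same cycle, had a log2 fold change of −0.17 (SE 0.09, edgeR adjusted p = 0.22) at baseline and −0.22 (SE 0.09, edgeR adjusted p = 0.0995) with bicuculline.

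**Figure D4:**
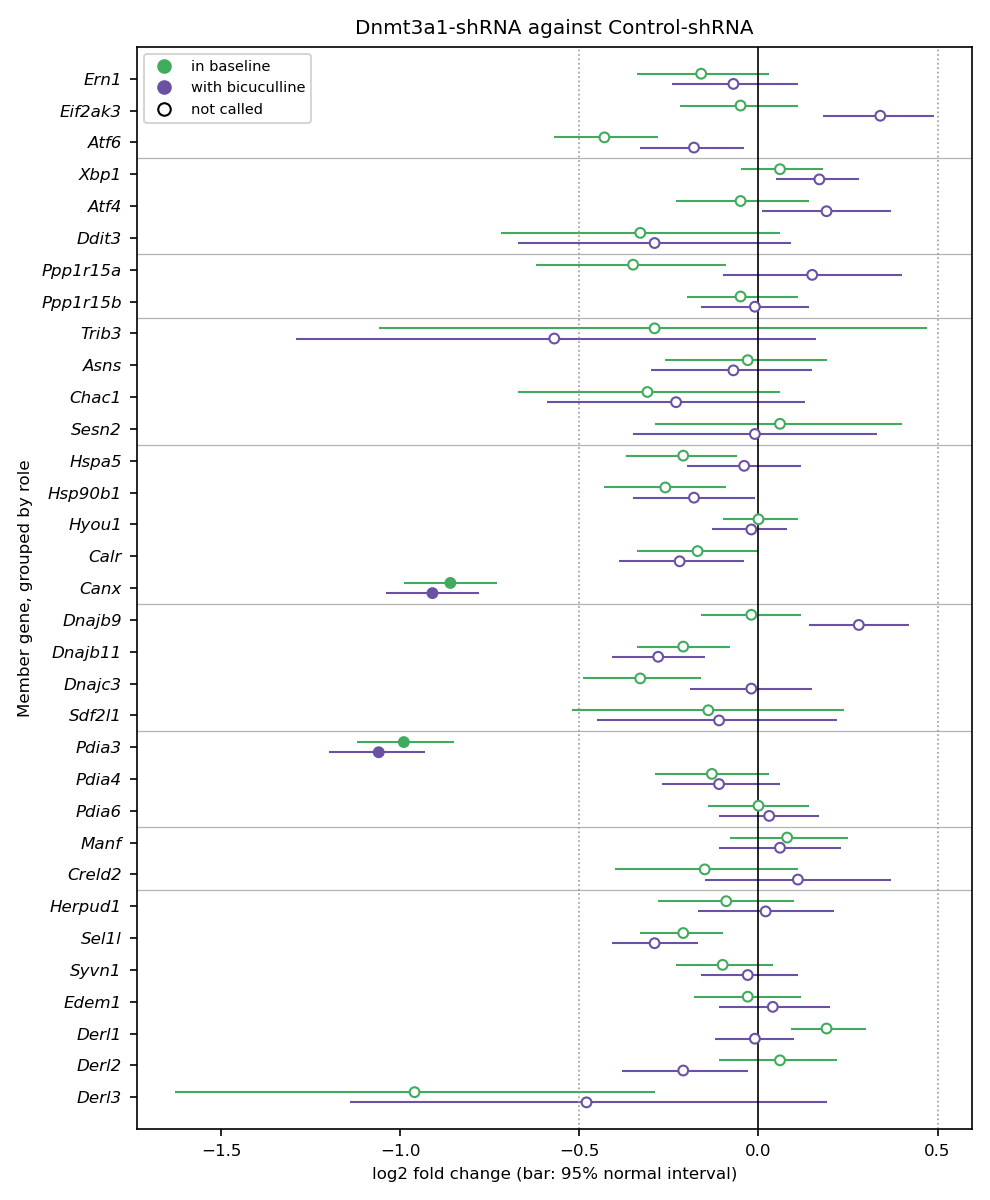
Log2 fold change of Dnmt3a1-shRNA against Control-shRNA for the 33 members (rows, grouped by role), at baseline (green) and with bicuculline (purple). Points are edgeR estimates from 4 against 4 libraries, bars are 95% normal intervals, filled points were called, and dotted lines mark −0.5 and 0.5. The filled points are *Canx* at −0.86 and −0.91 and *Pdia3* at −0.99 and −1.06.

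Smaller differences passed the adjusted p without the fold. At baseline *Atf6* had a log2 fold change of −0.43 (SE 0.08, edgeR adjusted p = 0.000832), with each Dnmt3a1-shRNA library below each Control-shRNA library, *Dnajc3* of −0.33 (SE 0.09, edgeR adjusted p = 0.0149) and *Hsp90b1* of −0.26 (SE 0.09, edgeR adjusted p = 0.048). *Sel1l* and *Dnajb11* were lower in both states, at −0.21 (SE 0.06, edgeR adjusted p = 0.0211) and −0.29 (SE 0.06, edgeR adjusted p = 0.00275) for *Sel1l*. For *Dnajb11* the values were −0.21 (SE 0.07, edgeR adjusted p = 0.0385) and −0.28 (SE 0.07, edgeR adjusted p = 0.00674). *Derl1* was higher at baseline alone by that test, at 0.19 (SE 0.06, edgeR adjusted p = 0.0221) against −0.01 (SE 0.06, edgeR adjusted p = 0.954) with bicuculline. The baseline difference of *Derl1* did not pass with library sizes alone, with only the genes at zero in all libraries removed, or on both TPM scales (log2 fold change down to 0.08, limma adjusted p up to 0.612). It held in 15 of the 16 fits lacking 1 library, the exception being that without Control-shRNA baseline replicate 3. With bicuculline *Eif2ak3* and *Dnajb9* were the 2 members higher by the adjusted p, at 0.34 (SE 0.08, edgeR adjusted p = 0.00693) and 0.28 (SE 0.07, edgeR adjusted p = 0.00937). At baseline their values were −0.05 and −0.02. With limma on log2 TPM neither passed the adjusted p (up to 0.127 for *Eif2ak3* and 0.302 for *Dnajb9*), and *Dnajb9* did not with library sizes alone either, its log2 fold change falling to as little as 0.17. Of the baseline differences that of *Hsp90b1* stayed under an adjusted p of 0.05 in 5 of the 16 fits lacking 1 library and that of *Dnajb11* in 10.

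*Derl3* was close to the threshold at baseline, with 0.362, 0.834, 0.852 and 0.876 CPM in Control-shRNA and 0.387, 0.490, 0.191 and 0.438 CPM in Dnmt3a1-shRNA. Its log2 fold change was −0.96 (SE 0.34, edgeR adjusted p = 0.0651). With the replicate number as a block *Derl3* was called (−0.97, edgeR adjusted p = 0.0414), so that 3 members were lower instead of 2. It was called as well with library sizes alone (−1.05, edgeR adjusted p = 0.0427). The same held without Control-shRNA baseline replicate 1 (−1.18, edgeR adjusted p = 0.0225), the lowest library of its group. *Atf6* also passed the fold threshold without Dnmt3a1-shRNA baseline replicate 3 (−0.50, edgeR adjusted p = 0.000131), as did *Ddit3* (−0.57, edgeR adjusted p = 0.0363). *Atf6* passed it too with library sizes alone (−0.50, edgeR adjusted p = 0.000548) and on both TPM scales (−0.50 and −0.54, limma adjusted p = 0.007 and 0.0063). In those fits the median of all genes was lower too.

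Cell-type markers moved beside the knockdown in part. The astrocyte marker *S100b* was called higher at baseline and with bicuculline (log2 fold change 0.82 and 0.84, edgeR adjusted p = 0.021 and 0.017), and all 6 astrocyte markers had a positive log2 fold change in both states, with a median of 0.51 and 0.50. The microglial marker *Csf1r* was called lower (−0.66 and −0.75, edgeR adjusted p = 0.04 and 0.0259). Only 2 of the 6 microglial markers were tested, and the other had a log2 fold change of 0.04 at baseline and −0.02 with bicuculline. The neuronal marker *Tubb3* was called higher at baseline (0.51, edgeR adjusted p = 0.000952) and the fibroblast marker *Lum* with bicuculline (0.67, edgeR adjusted p = 0.0334). The neuronal sum was 5923 to 7072 CPM in Dnmt3a1-shRNA baseline and 5499 to 6197 CPM in Control-shRNA baseline, so the ranges overlapped. With bicuculline it was 6478 to 7314 CPM and 6189 to 6579 CPM. The median log2 fold change of the 6 neuronal markers was 0.07 at baseline and 0.05 with bicuculline. The part of these cell types in the members' differences was not tested.

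A run of 7 bases of the hairpin's target, GAAAGGA, was counted for the same comparison. It was chosen with earlier results of these data known, so the shares are a description and no test. UTR length was not taken into account. It occurred in annotated 3′ UTRs of 22.9% of the 14443 tested genes that have one, in 47.6% of the 613 called lower at baseline with such a UTR and in 17.7% of the 254 called higher. With bicuculline the shares were 46.1% of 592 and 16.7% of 263. Of the 33 members 7 held it in an annotated 3′ UTR, namely *Ern1*, *Atf6*, *Canx*, *Manf*, *Sel1l*, *Syvn1* and *Derl1*. *Canx* therefore held the run and *Pdia3* did not. Of the 7 holders *Canx* alone was called lower in knockdown. By the adjusted p alone *Atf6* and *Sel1l* were also lower at baseline and *Derl1* was higher, while *Ern1*, *Manf* and *Syvn1* did not pass. The *Canx* stretch is shown with the 7 bases in capitals, at chr11:50296058-50296084 on the minus strand of GRCm38.
Canx: tgtttctgtaGAAAGGAaaacatttaa
The part of these bases in the fall of *Canx* was not tested.

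**Figure D5:**
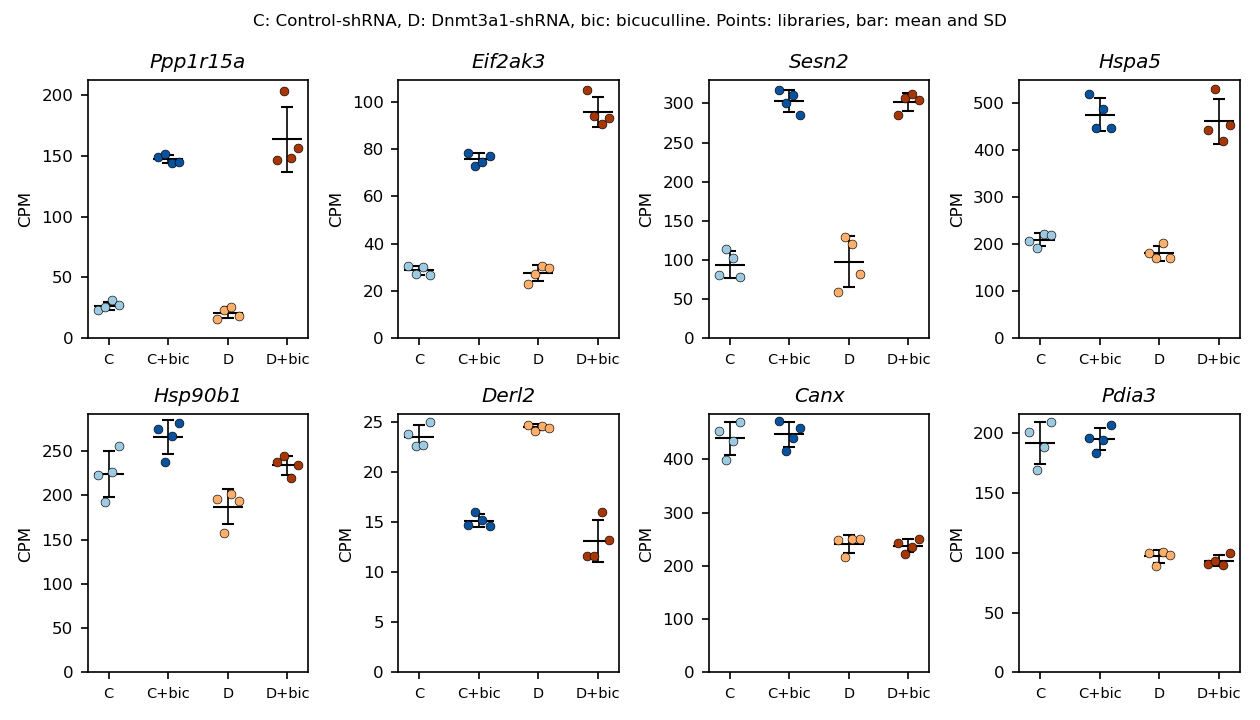
CPM of 8 members in the 4 groups, with a vertical axis from 0 in each panel. Points are the 4 libraries of a group and the bar gives mean and SD. *Ppp1r15a*, *Eif2ak3*, *Sesn2* and *Hspa5* are higher in the bicuculline groups, *Hsp90b1* differs by at most 0.32 on the log2 scale between states, *Derl2* is lower with bicuculline, and *Canx* and *Pdia3* are lower in both Dnmt3a1-shRNA groups.

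A further 101 genes of the same pathways were described to place the members. In Control-shRNA bicuculline raised 17 of them and lowered 3 (median log2 fold change 0.19), and in Dnmt3a1-shRNA 20 and 5 with a median of 0.16. By the same rule 10.8% of all tested genes were called higher and 11.1% lower in Control-shRNA, and 12.6% and 13.2% in Dnmt3a1-shRNA, shares against which the counts of each list below are to be read. Amino acid synthesis and transport, fed by ATF4, had 8 of 15 genes higher and none lower in both shRNAs. The cystine transporter *Slc7a11* (1.57 ± 0.23 and 1.79 ± 0.23), the cystathionine lyase *Cth* (0.80 ± 0.22 and 0.71 ± 0.24) and the glutamine carrier *Slc38a2* (0.79 ± 0.10 and 0.97 ± 0.10) led that list, in log2 fold change with its standard error. Of 12 transcription factors and effectors of the integrated stress response 4 rose and 1 fell in Control-shRNA. These were *Atf3* (5.45 ± 0.34), *Cebpb* (1.85 ± 0.18), *Cebpg* (0.77 ± 0.11) and the secreted *Stc2* (1.82 ± 0.11), with the pro-apoptotic *Bbc3* lower (−1.24 ± 0.35).

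The remaining lists moved less in Control-shRNA. Of 11 aminoacyl-tRNA synthetases 1 rose, *Eprs* (0.88 ± 0.10). None of the 11 genes of eIF2, eIF2B and the other eIF2 kinases was called by edgeR, with 2 higher and 2 lower by the adjusted p. Of 15 further oxidation, isomerase and chaperone genes *Txndc11* (0.92 ± 0.10) and *Calu* (0.66 ± 0.06) rose. Of 15 further ERAD factors the ubiquitin-conjugating enzyme *Ube2j1* rose (0.53 ± 0.06) and *Selenos* fell (−0.53 ± 0.10), and of 16 translocon and export genes the signal peptidase subunit *Spcs3* rose (0.73 ± 0.06). The protease gene *Mbtps1*, whose product makes the first cut in ATF6, fell (−1.06 ± 0.08) and was the only one of 6 genes of the ATF6 and CREB3 family and its proteases to be called.

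Other compartments were measured for comparison. Of 12 tested cytosolic heat shock genes 4 rose under each shRNA with a median of 0.40, among them *Hspa1b* (1.69 ± 0.20 in Control-shRNA), *Dnajb1* (1.08 ± 0.16) and *Hsf2* (1.01 ± 0.10). *Hspa1b* has a near-identical neighbour, so its own count is uncertain. Of 9 mitochondrial folding genes none was called in Control-shRNA by edgeR, with 3 higher and 1 lower by the adjusted p, and the median was 0.04.

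Against Control-shRNA, 5 of the 101 pathway genes were called lower in Dnmt3a1-shRNA at baseline and 4 with bicuculline, and 1 higher in each. These counts are near the shares over all tested genes (4.07% and 3.90% lower, 1.76% and 2.0% higher) and say nothing particular of the list. The second ATF6-cleaving protease *Mbtps2* fell by 1.24 and 1.34 on the log2 scale (SE 0.07 and 0.07), and the ATF6 relative *Atf6b* by 0.60 and 0.66 (0.06 and 0.06). The vesicle coat gene *Sec23b* (−0.67 ± 0.06 and −0.67 ± 0.06) and the folate enzyme *Mthfd2* (−0.99 ± 0.12 and −0.69 ± 0.12) were lower in both states, *Nupr1* at baseline (−1.0 ± 0.24). The ER membrane protein *Wfs1* was the gene called higher (0.61 ± 0.11 and 0.54 ± 0.11).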

How the data were processed

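The authors trimmed paired-end reads (Trim Galore 0.6.4), estimated transcript abundance with kallisto against GRCm38.p6, and deposited for each of the 16 libraries an estimated count and a TPM value per gene, summed over transcripts. Estimated counts as deposited were rounded to whole numbers, scaled by TMM and tested with the edgeR 4.0.16 quasi-likelihood test in R 4.3.3 over all 17222 genes that passed its count filter, with 1 mean per group and all 4 groups in 1 fit. A gene was called at a Benjamini-Hochberg adjusted p under 0.05 and a log2 fold change over 0.5 in size, and the interaction at the adjusted p alone. Alternatives used DESeq2 1.42.0 and limma 3.58.1, the latter also on log2(TPM + 1) and log2(TPM + 0.1). The fit was tested on simulated data, where 164 of 200 genes changed by 1 on the log2 scale were called in the Control-shRNA bicuculline comparison of 17222 genes. Groups and replicate numbers came from the labels. Replicates of a group differed by more than the sampling noise, with a chi-square per degree of freedom of 7.88 to 44.5.

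Deviations from the group means were correlated between same-numbered libraries, with a positive r in every comparison. For bicuculline r ran from 0.142 to 0.221 in Control-shRNA and from 0.0631 to 0.337 in Dnmt3a1-shRNA. For knockdown it ran from 0.204 to 0.355 at baseline and from 0.0667 to 0.388 with bicuculline. The main fit held no replicate block in any comparison, so its standard errors and adjusted p do not use this pairing. A fit with the replicate number as a block was run as an alternative.

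All 33 members were named, with values in every library for the sensors, the transcription factors and the called members with the largest changes (at most 14 per comparison). From each further list up to 3 called genes were named, with *Cebpg* and the genes called in knockdown added after their values were seen. Members and lists were chosen with earlier results of these data known. Symbols and coordinates came from GENCODE M21, and 55144 of 55385 identifiers matched. Estimated counts of overlapping or near-identical genes can be shared between them.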

Additional observations from a re-analysis of the deposited data

Results flagged for a closer look

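In each of the 132 sets of 4 libraries (33 members in 4 groups) the highest and lowest library was compared with the others by Dixon's ratio, which chance alone passes in about 1 set in 20, and 6 sets passed. In Dnmt3a1-shRNA baseline *Ppp1r15b* was highest in replicate 1 at 71.09 CPM, with the other libraries between 67.64 and 67.92 CPM. *Canx* was lowest in replicate 2 of that group at 216.8 CPM, where the others held 248.1 to 251.5 CPM, and *Sel1l* was lowest in the same library at 145.5 CPM, against 170.0 to 174.3 CPM. In Control-shRNA bicuculline replicate 1 was the highest library for *Hyou1* at 119.7 CPM (107.3 to 108.7 CPM in the others) and for *Herpud1* at 117.1 CPM (99.87 to 102.8 CPM). In Control-shRNA baseline *Derl3* was lowest in replicate 1 at 0.362 CPM, against 0.8335 to 0.8756 CPM.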

How the results depend on the processing

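Members called higher with bicuculline in Control-shRNA numbered 15, and 9 with limma on log2(TPM + 1), 9 on log2(TPM + 0.1) and 9 with a fold threshold of 1. Those called lower numbered 2, and 4 with library sizes only, 4 and 5 on the TPM scales, 7 with no fold threshold and 0 with a threshold of 1. In Dnmt3a1-shRNA 14 were called higher, and 9 with a fold threshold of 1. There 1 was called lower, and 4 with library sizes only, 2 when only genes at zero in all libraries were removed, 3 and 3 on the TPM scales, 6 with no fold threshold and 0 with a threshold of 1. For knockdown at baseline 0 were higher, and 1 with no fold threshold. There 2 were lower, and 4 with library sizes only, 7 with no fold threshold and 0 with a threshold of 1. For knockdown with bicuculline 0 were higher, and 2 with no fold threshold, and 2 were lower, and 4 with no fold threshold and 1 with a threshold of 1. Fits that each left out 1 library gave 14 to 15 higher and 1 to 2 lower in both bicuculline comparisons, 0 higher and 2 to 4 lower for knockdown at baseline, and 0 and 2 with bicuculline.

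*Hyou1* in Control-shRNA turned to −0.01 with library sizes only, −0.068 on log2(TPM + 1) and −0.069 on log2(TPM + 0.1), and *Calr* in Dnmt3a1-shRNA to −0.011 on both TPM scales. For the 63 member differences with an adjusted p under 0.05 there were 1638 alternative values. A called difference was kept if it had the same direction and was called again. One not called was kept if it had the same direction and an adjusted p under 0.05, also where it now passed the fold threshold, as *Sel1l* did in some fits. By this rule 1536 values were kept, 97 had the same direction and were not kept, and these 5 reversed. With the replicate number as a block, 15 members instead of 14 were higher with bicuculline in Dnmt3a1-shRNA, *Trib3* being added (0.75, edgeR adjusted p = 0.0218). At baseline 3 instead of 2 were lower in knockdown with the block, and the block changed no other call of a member. Where a cause is not given by the setting itself, the cause was not tested. *Trib3* and *Derl3* had the widest standard errors, 0.37 and 0.32 for bicuculline in Control-shRNA, and whether depth sets this was not tested. Summing both identifiers of *Ddit3* was chosen after seeing the data and left its values as they were.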
